A study of Mus musculus with 6 samples.

Results

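ATF4 and 9 further genes of the integrated stress response were followed in mouse epidermis: Atf4, Atf5, Ddit3, Ddit4, Trib3, Chac1, Asns, Psat1, Phgdh and Nupr1. These 10 genes, of 30142 genes tested, were chosen by name, with earlier results of these data known. Each was read from a probe set whose sole platform symbol was that gene. Only Ddit3 had more than 1 such probe set, and there the brighter one, averaged over the 6 arrays, was taken. All 10 genes were measured, and on no array did any of them read below the median negative control. The negative controls spread widely, with 95th percentiles of 7.46 to 8.07. Atf5, Ddit3, Trib3, Chac1, Asns and Nupr1 lay below that percentile on all 6 arrays, and Phgdh alone lay above it on all 6.

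The integrated stress response starts with kinases that phosphorylate the translation factor eIF2 when amino acids run short, unfolded proteins collect in the endoplasmic reticulum, haem is lacking or viral RNA appears. General translation then slows while the mRNA of ATF4, a transcription factor, is translated more. ATF4 switches on amino acid enzymes and transporters as well as its own feedback genes. mTORC1 also raises the translation of ATF4 when growth factors and nutrients are plentiful, so ATF4 output is tied to Raptor through a route that needs no stress. Arrays measure mRNA and show neither the phosphorylation of eIF2 nor the ATF4 protein.

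Epidermal sheets of mouse embryos at stage E18.5 were compared in 2 groups of 3 arrays each, 1 array per sample. Skin of both groups was kept in 3.8% ammonium thiocyanate for 10 min to free the sheets from the dermis. Rptor cKO embryos carried a conditional knockout of Rptor, the gene of Raptor, through which mTORC1 holds its substrates. Wild-type embryos were littermates, and embryos were sorted by eye and genotyped, per the labels. For the Cre driver, the deleted exons and any floxed alleles in wild-type embryos, nothing is given in the sources used here. The 3 samples per group are described as biological replicates. The series title concerns feedback from mTORC1 to AKT and the making of lysosomes. Rptor cKO arrays carry the numbers 1 to 3 and wild-type arrays 4 to 6. All levels are log2 values per probe set, and all differences are Rptor cKO minus wild type on that scale.

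The targeted gene, Rptor, averaged 6.69 ± 0.14 in the knockout and 7.15 ± 0.27 in the wild type (SD, n = 3). The difference of -0.46 (SE 0.15, limma adjusted p = 0.099) missed the threshold of 0.05, so Rptor checks the labels only weakly. Over the whole arrays 2887 genes, 9.58% of those tested, passed the test, 1793 of them lower (5.95%) and 1094 higher (3.63%). The share of lower genes among those that passed was 62.1%, and 75.8% with array medians subtracted. Xist and Y-linked genes read 2 of the Rptor cKO embryos as female and 1 (array 2) as male, and all 3 wild-type embryos as male. Of 14 epidermal markers 8 were lower and 1 was higher, with 1 to 7 lower when 1 array was left out (1 without Rptor cKO array 2, 4 without array 1 and 2 without wild-type array 6). Their summed linear level ran from 12733 to 22689 in Rptor cKO and from 30333 to 37154 in wild type. The basal keratins were not alike: Krt15 fell by 2.31 (SE 0.35), while Krt5 differed by 0.035 (SE 0.14) and Krt14 by 0.26 (SE 0.12), neither past the threshold. Krt1 of the suprabasal layers fell by 2.07 (SE 0.39). Of 10 dermal fibroblast markers 6 were higher (3 with array medians subtracted or with quantile normalization, 2 without Rptor cKO array 2 or wild-type array 6 and 3 without Rptor cKO array 1 or wild-type array 5), with summed levels of 1361 to 1572 against 1048 to 1111. Of 11 immune cell markers 4 were lower, with 299 to 417 against 445 to 576. The part of these shifts in the results below was not tested.

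Nupr1, Ddit4 and Trib3 fell in Rptor cKO epidermis, and none of the 10 genes rose. The other 7 did not pass the test. A share of 3 lower of 10 stood beside 5.95% of all genes, and 4 of 10 genes had every Rptor cKO array below every wild-type array, beside 12.5% of all genes. Groups that did not overlap in either direction made up 29.0% of all genes. The difference lay below 0 for 9 of 10 genes and for 38.4% of all genes. The median difference of the 10 genes was -0.32, and that of all genes was 0.05. At an unadjusted p under 0.05, limma gave 4 of the 10 genes as lower and 0 as higher, beside 11.4% and 11.9% of all genes. In whole sheets, fewer cells of a type and less RNA per cell cannot be told apart.

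**Figure D1:**
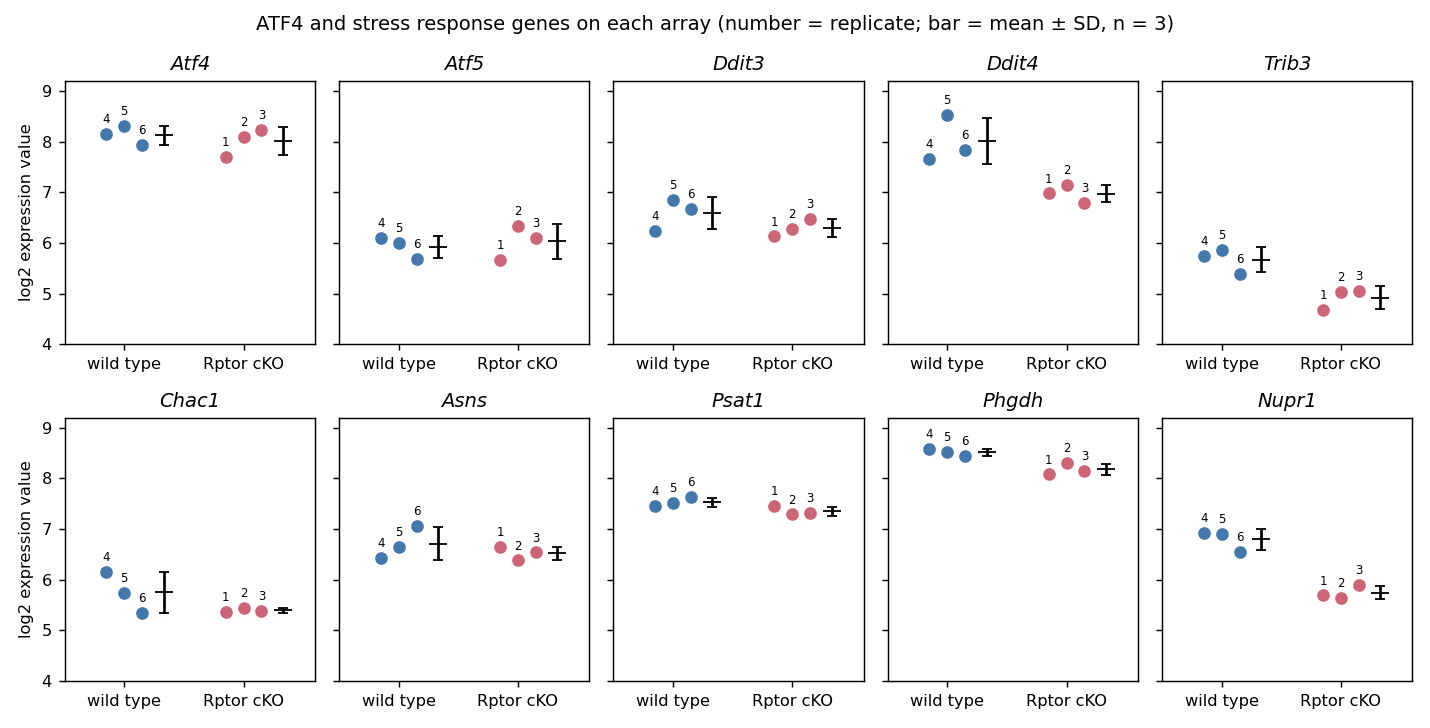
Log2 expression value (vertical axis, the same range in every panel) of the 10 genes in 3 wild-type and 3 Rptor cKO sheets; each point is 1 array with its replicate number, and the black bar is the mean ± SD (n = 3). The groups are apart for Ddit4, Trib3, Phgdh and Nupr1 and overlap for the other 6 genes.

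ATF4 binds DNA with C/EBP partners at an element whose core was searched as TGATGNAA on both strands. RefSeq promoter windows (GRCm38.p6, the build also called mm10; 250 bases before to 50 after each start) were found for all 10 genes, 12 windows in all, and 4 genes held the core. It was in 4 of the 12 windows, beside 3.97% of 32851 windows of that length. Of the 27025 genes with a window 4.51% held it. The core of the MiT/TFE element, searched as TCACGTGA, was in 0 of the 12 windows and in 0.974% of all windows. Shorter forms such as CACGTG, which the Nupr1 stretch below holds, were not counted. The 4 stretches below are those of the genes that held the ATF4 core. The capitals mark the match, which reads as its reverse complement in Nupr1, Chac1 and Trib3. They are written on the strand of the gene.
Nupr1 (chr7:126625471-126625720, minus strand): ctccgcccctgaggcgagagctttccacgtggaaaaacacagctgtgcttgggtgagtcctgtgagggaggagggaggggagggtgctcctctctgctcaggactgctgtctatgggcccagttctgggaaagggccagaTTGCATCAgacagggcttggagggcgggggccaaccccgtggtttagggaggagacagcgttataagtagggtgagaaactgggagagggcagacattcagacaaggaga
Trib3 (chr2:152344028-152344057, minus strand): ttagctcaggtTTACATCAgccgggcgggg
Chac1 (chr2:119351023-119351082, plus strand): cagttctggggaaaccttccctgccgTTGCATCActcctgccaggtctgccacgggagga
Asns (chr6:7693210-7693269, minus strand): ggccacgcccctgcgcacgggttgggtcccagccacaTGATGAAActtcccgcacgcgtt
The match began 110 bases before the start in Nupr1, 193 before it in Chac1 and 23 before it in Asns, and 14 bases after it in Trib3. Ddit4, which fell as well, held no match in this window. A match of letters is a description of the window and not a binding site, and of the 4 genes with a match Nupr1 and Trib3 passed the test while Chac1 and Asns did not.

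The transcription factors of the response did not pass the test. Atf4 itself (chromosome 15, 80255184 to 80257545) read 7.70, 8.09 and 8.24 in Rptor cKO, in the order of array numbers kept below, and 8.15, 8.31 and 7.94 in wild type. The groups overlapped, with the lowest value on Rptor cKO array 1. The difference was -0.12 (SE 0.16, 95% interval -0.48 to 0.24, adjusted p = 0.714), and it turned to 0.035 without Rptor cKO array 1. Atf5, a relative of ATF4 that is under similar translational control, read 5.66, 6.33 and 6.10 against 6.10, 6.00 and 5.68. Rptor cKO array 2 was the highest of the 6 arrays and array 1 the lowest. The difference of 0.10 (SE 0.18, 95% interval -0.31 to 0.52, adjusted p = 0.786) became -0.047 on leaving out Rptor cKO array 2 and -0.019 on leaving out wild-type array 6.

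Ddit3 encodes CHOP, the factor that acts with ATF4 in prolonged stress. It read 6.13, 6.28 and 6.48 in Rptor cKO and 6.24, 6.85 and 6.68 in wild type. Wild-type array 4 lay among the Rptor cKO arrays, while wild-type arrays 5 and 6 lay above them. The difference was -0.29 (SE 0.17, 95% interval -0.67 to 0.09, adjusted p = 0.341). This probe set is one that the platform marks as unmapped. The other Ddit3 probe set read 6.15 ± 0.227 and 6.18 ± 0.371 (SD, n = 3), a difference of -0.03, so the 2 probe sets of the gene differed in how far apart they put the groups.

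Nupr1 had the smallest p of the 10 genes. It encodes a small stress-induced chromatin protein, and lies on chromosome 7 (126623246 to 126625470). Its values were 5.69, 5.64 and 5.90 in Rptor cKO and 6.92, 6.91 and 6.55 in wild type. The groups were separated by 0.66, and each Rptor cKO array lay below each wild-type array. Nupr1 fell 2.07-fold (-1.05, SE 0.13, 95% interval -1.35 to -0.76, adjusted p = 0.00348). The difference ran from -1.17 to -0.99 over 13 alternatives, and the adjusted p from 0.00187 to 0.107. Nupr1 missed the threshold in 1 of these fits, the one without variance moderation.

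Ddit4 encodes REDD1, which holds back mTORC1 through the TSC complex and is induced by ATF4, low oxygen and glucocorticoids. The gene (chromosome 10, 59949675 to 59951770) read 6.98, 7.15 and 6.80 in Rptor cKO and 7.66, 8.53 and 7.84 in wild type. Wild-type array 5 stood above the other wild-type arrays, and the gap between the groups was 0.51. Ddit4 fell 2.05-fold (-1.04, SE 0.21, 95% interval -1.52 to -0.55, adjusted p = 0.0207). The adjusted p was 0.0528, 0.062 and 0.0561 without Rptor cKO arrays 1, 2 and 3, where the differences were -1.04, -1.12 and -0.95. Without wild-type array 5 the difference was -0.78 (adjusted p = 0.0174). With embryo sex as an added term it was -0.86 (SE 0.31, adjusted p = 0.224).

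Trib3 encodes a pseudokinase that ATF4 and CHOP induce, that dampens ATF4 in return and that binds AKT. The gene (chromosome 2, 152337425 to 152344060) read 4.67, 5.04 and 5.06 in Rptor cKO and 5.74, 5.86 and 5.39 in wild type. Rptor cKO array 1 and wild-type array 6 were the lowest of their groups, and the groups stood 0.33 apart. Trib3 fell 1.68-fold (-0.74, SE 0.16, 95% interval -1.10 to -0.39, adjusted p = 0.0218). The call was lost on leaving out Rptor cKO array 1 (adjusted p = 0.0562) or 2 (0.0665), or wild-type array 4 (0.0521) or 5 (0.0597), with differences from -0.80 to -0.62. With embryo sex as an added term the difference was -0.63 (SE 0.23, adjusted p = 0.227).

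Chac1, whose enzyme breaks down glutathione and which is a late target of ATF4 and CHOP, did not pass the test. Its 3 Rptor cKO arrays were within a narrow range (5.36, 5.45 and 5.39) and its wild-type arrays were wide apart (6.16, 5.74 and 5.35). The SD was 0.049 in Rptor cKO and 0.41 in wild type, with no test of the spread made. The difference was -0.35 (SE 0.18, 95% interval -0.77 to 0.07, adjusted p = 0.301), and wild-type array 6 lay below all Rptor cKO arrays.

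The 3 amino acid enzymes among the 10 genes did not pass the test. Phgdh, which starts serine synthesis from a glycolytic intermediate, read 8.08, 8.30 and 8.15 in Rptor cKO and 8.58, 8.52 and 8.45 in wild type. The groups did not overlap, with a gap of 0.15. The difference was -0.34 (SE 0.096, 95% interval -0.56 to -0.12, adjusted p = 0.0652), and with array medians subtracted it was -0.41 (adjusted p = 0.0303). Psat1, the next enzyme of serine synthesis, read 7.45, 7.29 and 7.32 against 7.45, 7.51 and 7.63. Rptor cKO array 1 and wild-type array 4 met at the border of the groups. The difference was -0.18 (SE 0.095, 95% interval -0.40 to 0.04, adjusted p = 0.307). Asns, which makes asparagine, read 6.64, 6.38 and 6.54 against 6.43, 6.65 and 7.06, with wild-type array 6 alone above the rest. Its difference was -0.20 (SE 0.16, 95% interval -0.56 to 0.17, adjusted p = 0.526).

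**Figure D2:**
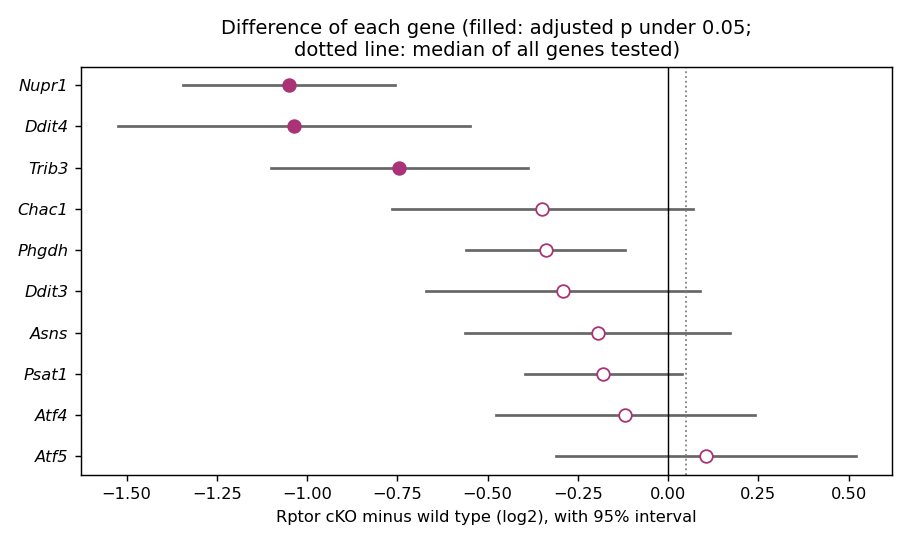
Rptor cKO minus wild type (horizontal axis, log2) for each of the 10 genes with its 95% interval from limma; filled points passed the test at an adjusted p under 0.05 and the dotted line is the median of all genes, 0.05. Nupr1, Ddit4 and Trib3 are filled, and the intervals of all other genes but Phgdh include 0.

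The genes did not follow a shared order of arrays within a group. Among the wild-type arrays, array 5 was the highest for Atf4, Ddit3, Ddit4 and Trib3 and the lowest for 0 of 10 genes. Wild-type array 6 was the highest for Asns and Psat1 and the lowest for 6 of 10. Among the Rptor cKO arrays, array 1 was likewise the highest for Asns and Psat1 and the lowest for 6 of 10, Atf4, Atf5, Ddit3, Trib3, Chac1 and Phgdh. Asns and Psat1 thus had their highest array of each group where Atf4 and Atf5 had their lowest. Over the 6 arrays the Pearson correlation with Atf4 was 0.682 for Atf5 and 0.676 for Trib3, and -0.339 for Asns and -0.241 for Psat1. These points share arrays and normalization and serve as a description.

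Genes around the pathway were read from lists by role. Among 14 genes of the eIF2 kinases, eIF2B and eIF2 phosphatase subunits, 1 was higher, 1 lower and 12 did not pass. Their median was -0.14, and of all genes 3.63% were higher and 5.95% lower by the same test. At an unadjusted p under 0.05 limma gave 5 of the 14 as lower and 1 as higher, beside 11.4% and 11.9% of all genes. Impact, an inhibitor of the amino acid sensing kinase GCN2, rose by 0.45 (SE 0.11, adjusted p = 0.0379), and Eif2b4, a subunit of the exchange factor that eIF2 phosphorylation blocks, fell by 0.51 (SE 0.12, adjusted p = 0.0379). Neither was stable to the arrays used: the call of Impact was lost without any 1 of the 6 arrays (adjusted p = 0.0548 to 0.112), and that of Eif2b4 without each array but wild-type array 6 (0.0564 to 0.133). The kinases, named after their values were seen, differed by -0.36 (Eif2ak1, HRI), -0.42 (Eif2ak2, PKR), -0.22 (Eif2ak3, PERK) and 0.25 (Eif2ak4, GCN2), with adjusted p = 0.0638 to 0.254. Of 16 partners and regulators of ATF4, Mafg, a small Maf protein, rose by 0.50 (SE 0.10, adjusted p = 0.0195). The other 15 did not pass, and the median of the list was 0.12. In limma 3 of the 16 were higher and 2 lower at an unadjusted p under 0.05, beside 11.9% and 11.4% of all genes. Mafg missed the threshold without Rptor cKO array 1 or 2 or wild-type array 4 (adjusted p = 0.0514 to 0.0904). Without Rptor cKO array 3, 2 genes of this list were lower, where the fit to all arrays gave 0.

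Amino acid transporters that ATF4 is known to induce were higher where they changed. Of 12 measured, 5 rose and 0 fell, 7 did not pass and the median was 0.32. At an unadjusted p under 0.05 limma gave 7 as higher and 1 as lower, beside 11.9% and 11.4% of all genes. Slc7a1, a carrier of arginine and lysine, read 9.12, 8.96 and 8.78 in Rptor cKO and 7.68, 7.62 and 7.86 in wild type, a 2.35-fold rise (1.23, SE 0.12, adjusted p = 0.00143). Slc38a2 and Slc38a1, carriers of glutamine and other small neutral amino acids, rose by 0.98 (SE 0.13, adjusted p = 0.00496) and 0.94 (SE 0.13, adjusted p = 0.00511). Slc7a5, a leucine exchanger, and Slc1a5, a glutamine exchanger, completed the 5. They rose by 1.04 (SE 0.21, adjusted p = 0.0177) and 0.49 (SE 0.12, adjusted p = 0.0418). Under 13 alternatives Slc7a1 passed in 12, Slc38a2 and Slc38a1 in 11 each, Slc7a5 in 9 and Slc1a5 in 4. The rises numbered 5, 3 and 4 without Rptor cKO arrays 1, 2 and 3 and 4, 5 and 3 without wild-type arrays 4, 5 and 6. With embryo sex in the model 1 transporter rose. The 5 raised transporters and the 3 fallen genes Nupr1, Ddit4 and Trib3, both known as targets of ATF4, differed in opposite directions on the same arrays. ATF4 protein and its binding were not measured, and the cause of either change was not tested.

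Enzymes of serine, glycine and one-carbon metabolism were mixed, with 2 of 14 higher, 3 lower and a median of 0.28. At an unadjusted p under 0.05 limma gave 7 as higher and 4 as lower, beside 11.9% and 11.4% of all genes. Tyms, which makes thymidylate, and Shmt1, the cytosolic enzyme that splits serine into glycine, rose by 0.57 (SE 0.091, adjusted p = 0.00863) and 0.64 (SE 0.11, adjusted p = 0.0112). Gldc, of the glycine cleavage system, fell by 0.63 (SE 0.11, adjusted p = 0.0117), the mitochondrial folate enzyme Aldh1l2 by 0.81 (SE 0.19, adjusted p = 0.032) and its cytosolic relative Aldh1l1 by 0.38 (SE 0.099, adjusted p = 0.0485). Psph, the last enzyme of serine synthesis after Phgdh and Psat1, named after its value was seen, differed by -0.27 (SE 0.11, adjusted p = 0.182). The falls numbered 1, 0 and 1 without Rptor cKO arrays 1, 2 and 3 and 2, 1 and 1 without wild-type arrays 4, 5 and 6, and the rises 1 without Rptor cKO array 2. Without Rptor cKO array 2, Shmt1 had an adjusted p of 0.0552 and Gldc of 0.0575. Aldh1l2 kept its call only without wild-type array 4 (adjusted p = 0.065 to 0.105 without the others), and Aldh1l1 lost it without any 1 array (0.0552 to 0.149).

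Of 21 cytosolic aminoacyl-tRNA synthetases and partners, 1 rose, 1 fell and 19 did not pass, with a median of -0.039. In limma 6 were lower and 2 higher at an unadjusted p under 0.05, beside 11.4% and 11.9% of all genes. Gars, which charges glycine, fell by 0.88 (SE 0.19, adjusted p = 0.0237), and Aimp2, a scaffold of the synthetase complex, rose by 0.35 (SE 0.089, adjusted p = 0.0473). Without wild-type array 5 there were 6 falls, and without Rptor cKO array 2 or wild-type array 6 there were 0. Gars missed the threshold on leaving out Rptor cKO array 2 (adjusted p = 0.101) or wild-type array 4 (0.0531) or 6 (0.083), and Aimp2 without any 1 array (0.0723 to 0.143).

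In a list of 24 further output genes of ATF4 and CHOP, 4 fell and 2 rose, and 18 did not pass, with a median of -0.051. Limma gave 6 as lower and 3 as higher at an unadjusted p under 0.05, beside 11.4% and 11.9% of all genes. Gpt2, the mitochondrial alanine transaminase, read 5.71, 5.85 and 6.11 in Rptor cKO and 7.18, 7.16 and 7.08 in wild type, a 2.38-fold fall (-1.25, SE 0.12, adjusted p = 0.0014). Ero1a, an oxidase of the endoplasmic reticulum, fell by 0.71 (SE 0.12, adjusted p = 0.0115), and Sesn2, a stress-induced inhibitor of mTORC1, fell by 0.63 (SE 0.12, adjusted p = 0.0157). Cth, which makes cysteine from cystathionine, rose by 0.64 (SE 0.12, adjusted p = 0.0147), and Trib1, a relative of Trib3, rose by 0.62 (SE 0.15, adjusted p = 0.0399). Trib1 and Trib3 therefore passed the test in opposite directions. Without Rptor cKO array 2 Gpt2 alone of these 5 passed, and the counts were 1 fall and 0 rises. Trib1 kept its call on leaving out Rptor cKO array 3 alone, and the other 5 such fits gave it an adjusted p of 0.0571 to 0.125. The rises numbered 1 in 4 of those 5.

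**Figure D3:**
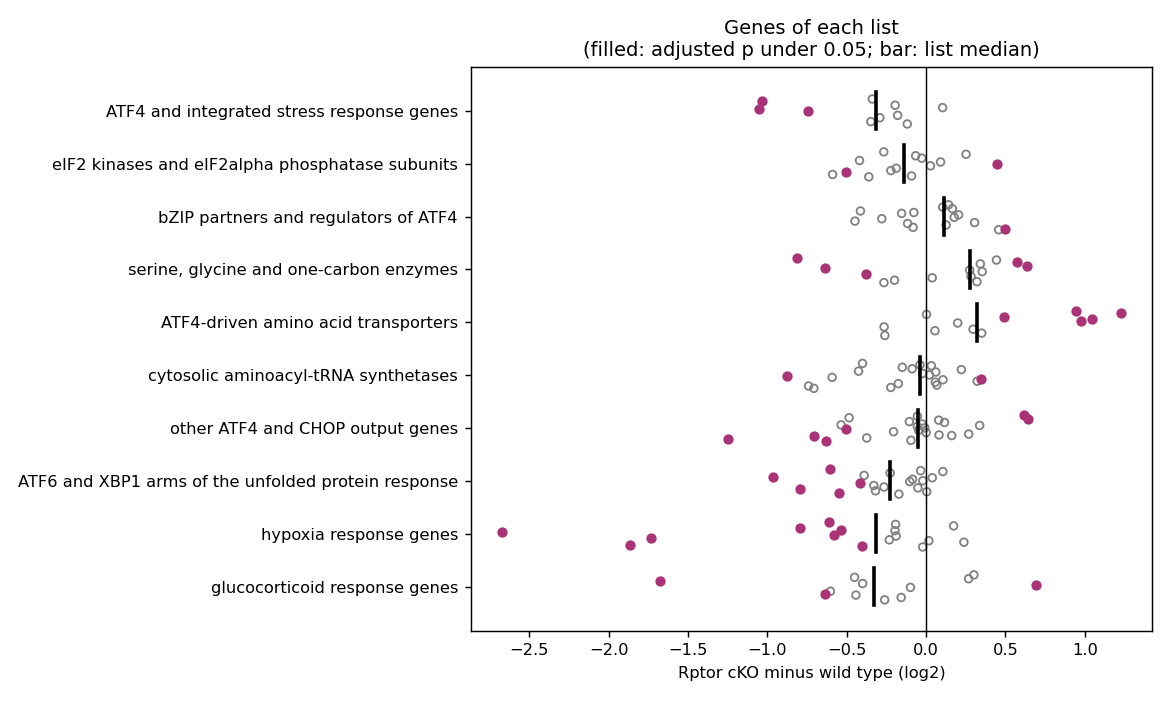
Rptor cKO minus wild type (horizontal axis, log2) of every measured gene of the 10 stress response genes and of 9 further lists; filled points passed the test at an adjusted p under 0.05 and the black bar is the median of the list. The amino acid transporters have a median of 0.32 with 5 rises, and the hypoxia list has a median of -0.32 with 8 falls. Of all genes tested 3.63% rose and 5.95% fell.

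The other arms of the unfolded protein response, which run through ATF6 and XBP1 and share their trigger with PERK, held 5 falls and 0 rises among 19 genes, with a median of -0.23. At an unadjusted p under 0.05 limma gave 8 as lower and 0 as higher, beside 11.4% and 11.9% of all genes. Herpud1, of the machinery that removes misfolded proteins, fell by 0.97 (SE 0.16, adjusted p = 0.00916), Xbp1 by 0.79 (SE 0.15, adjusted p = 0.0148) and Sdf2l1, a partner of chaperones, by 0.61 (SE 0.11, adjusted p = 0.0146). The falls numbered 3, 1 and 3 without Rptor cKO arrays 1, 2 and 3 and 3, 7 and 3 without wild-type arrays 4, 5 and 6. With embryo sex in the model there were 0 falls. Without Rptor cKO array 2, Herpud1 had an adjusted p of 0.0502 and Xbp1 of 0.0726.

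Genes of the 2 other inputs known for Ddit4 were also read. Of 16 hypoxia response genes 8 fell and 0 rose, with a median of -0.32, beside 5.95% of all genes lower and 3.63% higher. At an unadjusted p under 0.05 limma gave the same counts, beside 11.4% lower and 11.9% higher of all genes. Bnip3, a mitophagy receptor, fell 3.32-fold (-1.73, SE 0.14, adjusted p = 0.000965). Egln3, an oxygen-sensing hydroxylase, read 7.77, 7.21 and 7.56 in Rptor cKO and 9.58, 9.51 and 9.07 in wild type and fell 3.65-fold (-1.87, SE 0.18, adjusted p = 0.00145). Ankrd37, a target of HIF1, fell by 0.79 (SE 0.13, adjusted p = 0.00978). The falls numbered 5, 3 and 5 without Rptor cKO arrays 1, 2 and 3 and 6, 4 and 6 without wild-type arrays 4, 5 and 6, with 5 under quantile normalization and 2 with embryo sex in the model. Of 12 glucocorticoid response genes 2 fell and 1 rose, with a median of -0.33. At an unadjusted p under 0.05 limma gave 6 of them as lower and 2 as higher, beside 11.4% and 11.9% of all genes. Dusp1, a MAP kinase phosphatase, fell by 1.68 (SE 0.38, adjusted p = 0.0308), Tsc22d3, known as GILZ, fell by 0.64 (SE 0.14, adjusted p = 0.0285), and the metallothionein Mt2 rose by 0.69 (SE 0.13, adjusted p = 0.0136). Without Rptor cKO array 2 none of these 3 passed (adjusted p = 0.106, 0.111 and 0.0533). Tsc22d3 and Dusp1 also missed the threshold without Rptor cKO array 1 (0.0819 and 0.0714), and Dusp1 without wild-type array 6 (0.0724).

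**Figure D4:**
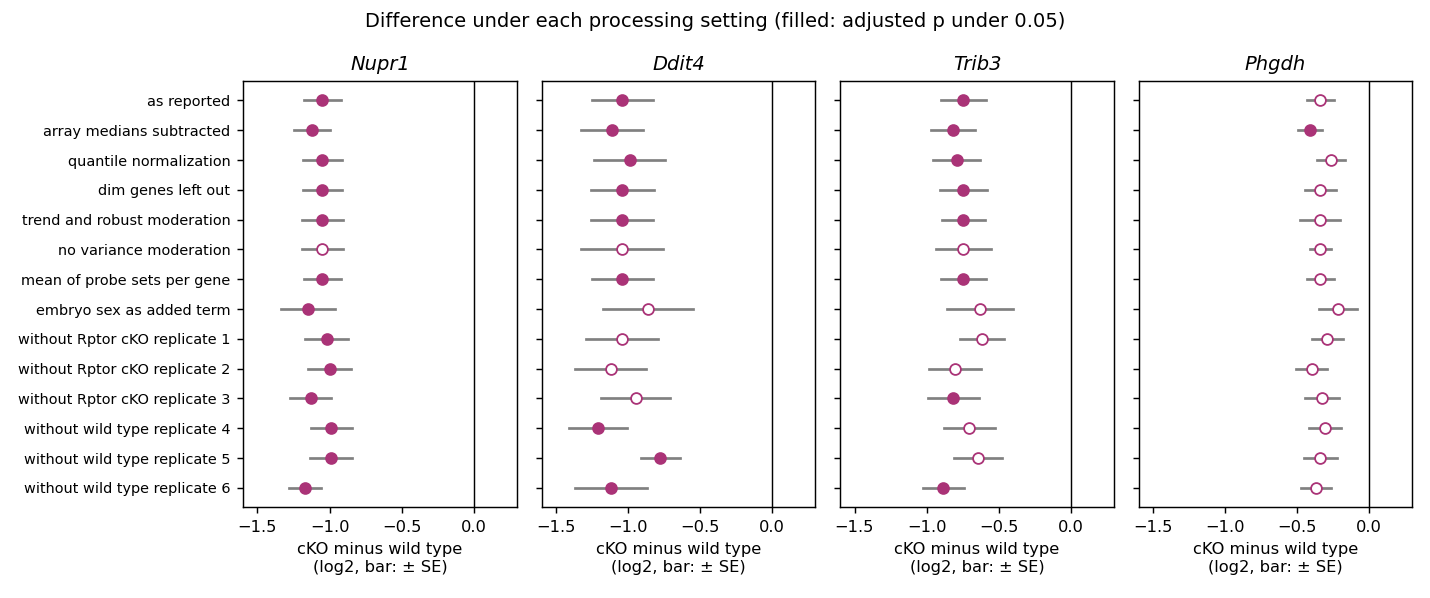
Difference between Rptor cKO and wild type (horizontal axis, log2, bar ± SE) of the 4 genes whose groups did not overlap, under the reported setting and 13 alternatives (vertical axis); filled points passed the test. Nupr1 is filled under 12 of 13 alternatives, Ddit4 under 8, Trib3 under 7 and Phgdh under 1.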

How the data were processed

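Total RNA of epidermal sheets, freed from the dermis with ammonium thiocyanate, was labelled with biotin by the Ambion Expression WT kit and measured on 6 arrays, per the labels' protocols. The authors deposited log2 values for each probe set. Per the submitters' processing notes, RMA and Partek were used, with the mm10 build and no stated versions. RMA usually includes quantile normalization, which hides general changes of RNA per cell and compresses dim probe sets. The array medians ran from 4.06 to 4.21. The scale was taken as log2 from its range, 1.34 to 14.04. Columns carry sample names, so directions are known. No scan dates were at hand, and batches were not tested.

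Of 72688 probe sets, 6732 controls, 2146 naming several genes and 33206 naming none were left out. The other 30604 gave 30142 genes, with 827 symbols updated by Entrez ID, and the probe set with the highest mean was used per gene. The median of 5222 negative controls ran from 3.81 to 4.11 on the arrays. lmFit and eBayes of limma 3.58.1 (R 4.3.3) were fitted to all 6 arrays with group as the sole term, two-sided, with Benjamini-Hochberg adjustment over 30142 genes, a threshold of 0.05 and 4.30 prior degrees of freedom, and no dim filter. SE and 95% intervals are moderated. Every adjusted p is from this fit or the named alternative. An exact permutation test of 3 against 3 arrays cannot go below p = 0.1. The number of arrays limits the precision. The procedure was tested on simulated data. Motifs were counted in RefSeq windows.

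The 10 genes and all lists (9 pathway lists, 7 marker lists) were chosen with earlier results of these data known. Named genes were the 10 genes, Rptor, up to 3 per direction with the smallest p past the threshold in each list, or 2 where none passed, and the 5 most like Atf4, leaving out predicted genes, clones, small RNAs and chemosensory receptors. The 4 eIF2 kinases, Psph, Slc7a5, Slc1a5, Krt5 and Krt14 were added after values were seen. Alternatives were another scaling, a dim filter, other moderation, mean probe sets, embryo sex as a term and leaving out each array.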

Additional observations from a re-analysis of the deposited data

How the results depend on the processing

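Nupr1, Ddit4 and Trib3 stayed lower under all 13 alternatives, as did the median of the 10 genes. The count of the 10 genes past the threshold was 0 in the ordinary linear model without variance moderation (4 lower and 0 higher at an unadjusted p under 0.05) and 1, Nupr1, with embryo sex as an added term, a fit in which the group term rests on the male arrays. Leaving out 1 array gave 1 to 3. For all genes these counts were 8, 642 and 886 to 2443, the lowest 2 without Rptor cKO array 2 (886) and 1 (1850), and for the 9 pathway lists together, 37 as reported, they were 0 (56 at an unadjusted p under 0.05), 5 and 9 to 33, with 9 without Rptor cKO array 2 and 23 without array 1. The ordinary model and the sex term have fewer degrees of freedom for the spread. With the sex term, the group difference also sets Rptor cKO array 2 alone, the sole male of its group, against the wild-type arrays. There the SE of Nupr1 was 0.19, against 0.13 as reported. Further causes were not tested. Small differences changed sign on leaving out 1 array. They ran from -0.234 to 0.035 for Atf4, -0.164 to 0.018 for Xk, -0.172 to 0.058 for Pgls, -0.242 to 0.028 for Sh3bgrl3 and -0.0487 to 0.0029 for Ptpn18, each above 0 without Rptor cKO array 1 (Pgls also without wild-type array 5, 0.026, and with the sex term, 0.0072). Atf5 ran from -0.047 (without Rptor cKO array 2) to 0.288 and was -0.019 without wild-type array 6. No paired analysis was made, since the litter of each embryo was not at hand and the groups share no replicate numbers.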

Other observations

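The genes most like Atf4 over the 6 arrays, among 14856 genes with a mean above the negative control median, were Xk (Pearson r = 0.99), Pgls (0.987), Sh3bgrl3 (0.985), Gpank1 (0.984) and Ptpn18 (0.984). Xk encodes a membrane protein of red cells, Pgls an enzyme of the pentose phosphate pathway and Ptpn18 a tyrosine phosphatase. Their differences ran from -0.15 for Gpank1 to -0.027 for Ptpn18, with adjusted p = 0.555 to 0.889. With 6 arrays such values are a description of these arrays.

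Markers of further cell types that a sheet can hold were also read. In the test 1 of 9 endothelial, 1 of 8 melanocyte and 0 of 8 muscle markers passed. Of 7 Merkel cell markers 1 was higher and 1 lower, and 9.58% of all genes passed in either direction. The melanocyte markers had a median difference of 0.54, with 8 of 8 above 0, and the muscle markers one of 0.46, with 7 of 8 above 0. Their part in the results was not tested. Pecam1 of the endothelium rose by 0.53 (SE 0.10, adjusted p = 0.0167), the sole one of 9 markers that passed, and it lay under the negative control median on 1 array. Of the endothelial markers 3 of the 9 read below the median negative control throughout. Kit was the sole one of 8 melanocyte markers to pass and rose by 0.63 (SE 0.14, adjusted p = 0.0252). Atoh1, the factor that makes Merkel cells, fell by 0.68 (SE 0.10, adjusted p = 0.00667), while Krt18 of the same list of 7 rose by 0.43 (SE 0.088, adjusted p = 0.0205). Of 8 muscle markers 0 passed in limma, with 5 higher at an unadjusted p under 0.05, beside 11.9% of all genes. Acta1 differed by 0.73 (adjusted p = 0.0704) and Ckm by 0.52 (adjusted p = 0.135). Pecam1 missed the threshold without Rptor cKO array 1 (adjusted p = 0.0532) or 2 (0.0798) or wild-type array 6 (0.0525), Kit without Rptor cKO array 2 (0.107) or 3 (0.0701) or wild-type array 5 (0.0587), and Krt18 without each array but wild-type array 6 (0.0546 to 0.0713). Acta1 passed without wild-type array 4 (adjusted p = 0.0115), and 1 muscle marker passed without Rptor cKO array 3. With array medians subtracted, none of the melanocyte markers passed and Krt18 missed the threshold.

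Of the epidermal markers, Krt15, a basal keratin, fell by 2.31 (SE 0.35, adjusted p = 0.00693), Ivl, involucrin of the cornified envelope, fell by 1.90 (SE 0.35, adjusted p = 0.0136), and Dsg3, a desmosomal cadherin of the lower layers, rose by 0.70 (SE 0.17, adjusted p = 0.0364). Of the fibroblast markers, Dcn rose by 0.94 (SE 0.11), Col5a1 by 0.67 (SE 0.10) and Lum by 1.43 (SE 0.28), and of the immune markers Itgam fell by 0.76 (SE 0.13), Csf1r by 0.64 (SE 0.12) and Ptprc by 0.57 (SE 0.11). Ptprc lay under the negative control median on 4 of 6 arrays, all 3 of Rptor cKO among them, and Lum on 2 wild-type arrays, so the sizes of these differences are uncertain. With Rptor cKO array 2 left out, Ivl (adjusted p = 0.0658), Dsg3 (0.0922), Lum (0.0805), Ptprc (0.0504) and Krt1 (0.0504) missed the threshold. Dsg3 lost its call in all leave-one-out fits but that without wild-type array 6, and Lum and Krt1 theirs without wild-type array 6 (0.065 and 0.057).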
